A study of Mus musculus with 12 samples.

Results

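Heat shock proteins are molecular chaperones that bind unfolded or damaged proteins and help them fold, assemble or be degraded. A set of 10 such genes is described here, in 12 RNA-Seq libraries of mouse retina. They were taken by symbol from the 50559 genes of the deposited count table, and all 10 of 10 had counts in every library. They comprise the stress-inducible HSP70 pair Hspa1a and Hspa1b, the constitutive HSP70 Hspa8, the HSP110 gene Hsph1, the J-domain gene Dnajb1, the cytosolic HSP90 genes Hsp90aa1 and Hsp90ab1, the small heat shock protein gene Hspb1, and the chaperones of the endoplasmic reticulum (ER), Hspa5, and of mitochondria, Hspd1.

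The retinas came from WT C57BL/6J mice at postnatal day 28, in 4 groups of 3 libraries. IgG mice received 30 µg of an isotype control antibody on day 1, and APB5 mice received 30 µg of APB5, a rat monoclonal antibody that blocks PDGFRβ, the receptor by which pericytes are recruited to growing vessels. IgG+Mino and APB5+Mino mice received the same antibodies and then minocycline, a tetracycline that dampens microglial activation, by daily intraperitoneal injection of 45 mg/kg from day 5 to day 27. The comparisons ask what pericyte loss does to retinal transcripts and what minocycline changes with and without it. The antibody acts throughout the body, and whole retina was sequenced, so fewer cells of a type and less RNA per cell cannot be told apart. Total counts ranged from 52740545 to 59411044 per library, so that even the rarest member, Hspb1, had 83 counts in its lowest library.

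In resting cells, Hspa8 and Hsp90ab1 are made continuously and serve everyday folding, whereas Hspa1a, Hspa1b, Hsph1, Dnajb1, Hspb1 and Hsp90aa1 are transcribed more strongly when heat shock factor 1 (HSF1) binds heat shock elements in their promoters. Hspa5, known as BiP, is instead induced by the unfolded protein response, when client proteins accumulate in the ER. Photoreceptors constantly renew the proteins of their outer segments and depend on these systems, while Hspb1 in the retina is best known as a stress protein of glia and injured neurons.

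Some libraries stood apart. APB5 replicate 3 had a summed level of 12 rod markers of 14883 CPM (counts scaled to a common library total), against 54423 to 84267 CPM in the other 11 libraries. Its 13 microglia and macrophage markers summed to 705 CPM, against 34.9 to 113 CPM elsewhere. No marker of either list was at 0 throughout. Sex was not given in the labels. Xist, the RNA of the silenced X chromosome, had 47210 counts or more in all 3 IgG libraries, in APB5 replicate 3 and in APB5+Mino replicate 3, and at most 38 counts in the other 7 libraries. IgG and IgG+Mino therefore differed in sex in all libraries, and minocycline and sex cannot be told apart between them. The study counts its RNA-Seq replicates in mice, so the libraries of a group were taken as separate animals.

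The member that changed most clearly was Hspa5, which fell in APB5+Mino against APB5 to 0.457 of its level (log2 fold change −1.13, SE 0.20, adjusted P = 0.0461, edgeR quasi-likelihood test, adjusted over all genes tested by the Benjamini-Hochberg method). It was 1 of 10 members with an adjusted P of at most 0.05 in that comparison, and the only one that also passed a log2 fold change of 1, the study's threshold. With the replicate number as a block it did not pass (adjusted P = 0.0641, edgeR), and neither did any other of the 20281 genes. Among all 20281 genes tested, 2.03% were lower and 2.79% higher at that adjusted P, and 0.819% were lower with the fold as well. A larger set, 4 of 10 members, fell in APB5+Mino against IgG+Mino: Hspa5, Hspa8, Hsp90aa1 and Hsp90ab1, where 3.28% of the 20049 genes tested were lower and 4.80% higher. None of these 4 passed the fold threshold, which 1.24% of genes did in either direction. All 4 calls were lost without IgG+Mino replicate 3, APB5+Mino replicate 2 or APB5+Mino replicate 3, with adjusted P reaching 0.0870 for Hspa5, 0.155 for Hspa8, 0.173 for Hsp90aa1 and 0.185 for Hsp90ab1 (edgeR), and Hspa5 alone passed without APB5+Mino replicate 1. They were also lost with all 12 libraries in 1 fit and with Xist as a covariate. There the lowest adjusted P of the 4 was that of Hspa5 (0.193 and 0.123, edgeR), and 0 of 21228 genes were called. The fit with Xist also used all 12 libraries, so the loss cannot be assigned to the covariate.

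With the settings reported, no member passed in the other comparisons. In APB5 against IgG the share of 20350 genes passing was 0% by edgeR, while 1472 genes and 0 members had an unadjusted P under 0.05. DESeq2 called 98 genes and 0 members at any fold. With Xist as a covariate 1480 of 21228 genes were called, among them 1 member, Hspb1 (adjusted P = 0.0101, edgeR). That fit was not repeated without APB5 replicate 3, the only APB5 library high in Xist. In IgG+Mino against IgG, 0.0298% of genes and 0 members passed. The 6 genes that passed included Xist, which was lower, and 4 Y-linked genes, which were higher, so most of them marked the difference in sex. The interaction of antibody and minocycline, fitted on all 12 libraries, passed in 0.0141% of genes and in 0 members, with 3 members, Hspa5, Hspb1 and Hsph1, at an unadjusted P under 0.05, as were 3640 of the 21228 genes tested.

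The ranges of the 3 libraries give a second view. Hspa8, Hsph1, Dnajb1, Hsp90ab1, Hspa5 and Hspd1 lay in APB5+Mino below every APB5 library, 6 of 10 members against 22.8% of all genes, and 0 members lay above, against 23.5%. Against IgG+Mino, 6 members lay wholly below (Hspa8, Hsph1, Dnajb1, Hsp90aa1, Hsp90ab1 and Hspa5, background 17.6%) and 0 above (background 17.7%). In APB5 against IgG, Hsp90aa1 and Hspd1 lay wholly below, 2 of 10 members against 7.89% of genes, and 0 above against 7.79%. In IgG+Mino against IgG, Hsp90aa1, Hsp90ab1 and Hspd1 lay wholly below, 3 of 10 against 7.35%, and 0 above against 7.03%. The median log2 fold change of the members was 0.017 in APB5 against IgG and −0.41 in APB5+Mino against APB5, beside −0.0025 and −0.021 for all genes. It was −0.18 in IgG+Mino against IgG and −0.31 in APB5+Mino against IgG+Mino, beside −0.010 and −0.0092. Each group enters 2 of these comparisons, so their values are not independent of each other.

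**Figure D1:**
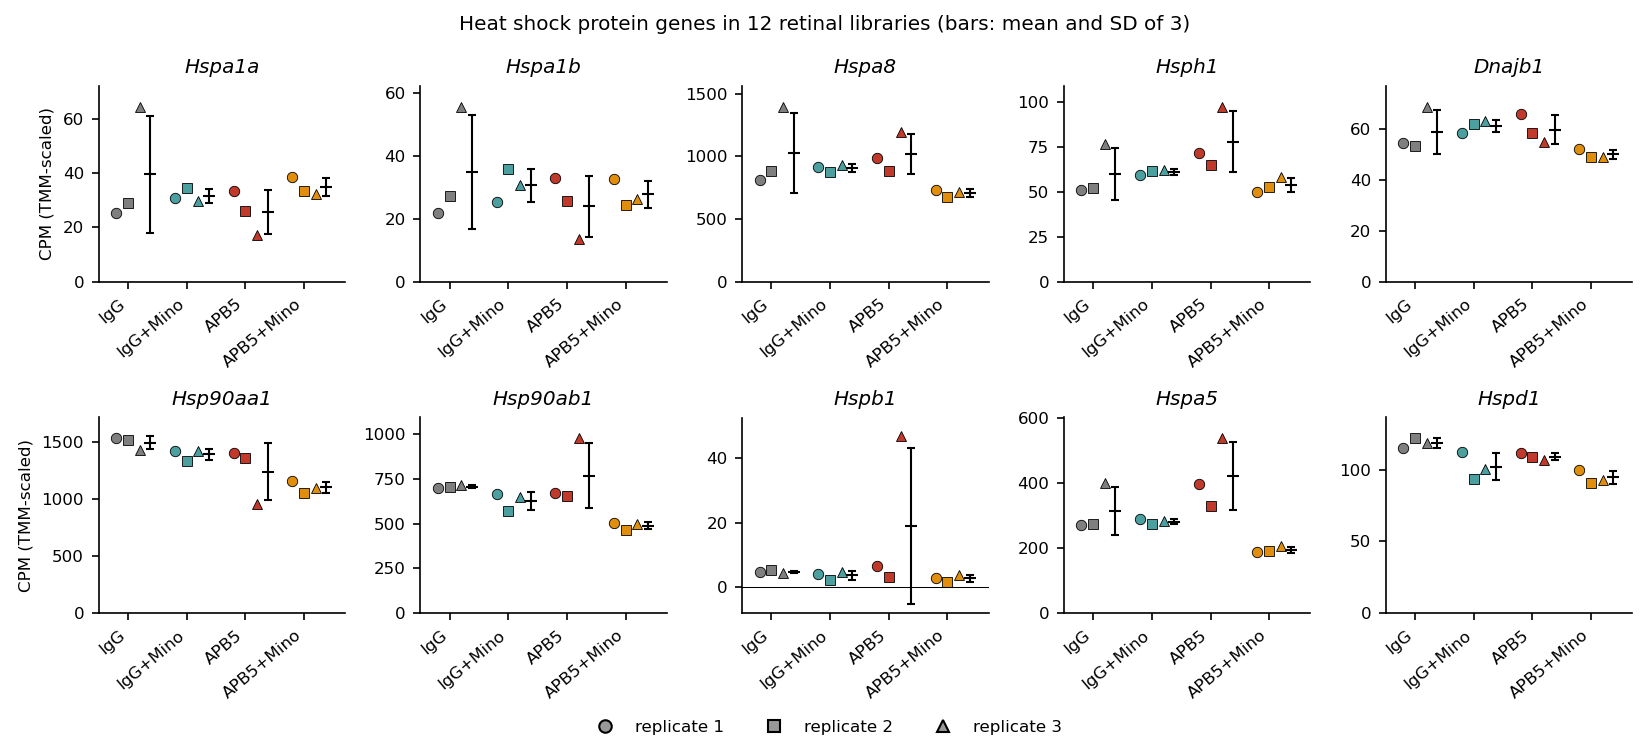
Level of each of the 10 heat shock protein genes (y axis, CPM after TMM scaling, from 0) in the 12 libraries; symbols mark the replicate, colors the group, and bars the mean and SD of 3 libraries. Replicate 3 of IgG is highest of all 12 libraries for Hspa1a, Hspa1b, Hspa8 and Dnajb1, replicate 3 of APB5 is highest for Hsph1, Hsp90ab1, Hspb1 and Hspa5, and the 3 APB5+Mino libraries lie below the 3 APB5 libraries for Hspa8, Hsph1, Dnajb1, Hsp90ab1, Hspa5 and Hspd1.

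Levels can be compared between genes only per transcript length. In IgG, Hspa8 had 430.3 ± 133 and Hsp90aa1 424 ± 15.3 CPM per kb (mean ± SD, n = 3 libraries, length of the canonical transcript), and these 2 genes overlapped. Hsp90ab1 followed at 262 ± 3.63, Hspa5 at 63.7 ± 14.8 and Hspd1 at 48.9 ± 1.44 CPM per kb, each apart from its neighbors. Dnajb1 (16.6 ± 2.40), Hspa1a (13.3 ± 7.25), Hspa1b (12.4 ± 6.44) and Hsph1 (9.66 ± 2.34) overlapped from one to the next, and Hspb1 was lowest at 5.27 ± 0.418 CPM per kb. The constitutive Hspa8 thus stood far above the inducible pair of its own family in control retina.

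Hspa1a and Hspa1b encode nearly identical inducible HSP70 proteins. Both are single-exon genes on the minus strand of chromosome 17 (Hspa1a at chr17:35188166-35191132 and Hspa1b at chr17:35175412-35178214, GRCm39). Their promoters are shown because both hold the element that HSF1 recognizes. The 250 bases upstream of each start site, from the RefSeq promoter table of GRCm38.p6 and placed on GRCm39 by exact match at chr17:35191133-35191382 and chr17:35178215-35178464, minus strand, read as follows, with the element GAANNTTC in capitals.
Hspa1a: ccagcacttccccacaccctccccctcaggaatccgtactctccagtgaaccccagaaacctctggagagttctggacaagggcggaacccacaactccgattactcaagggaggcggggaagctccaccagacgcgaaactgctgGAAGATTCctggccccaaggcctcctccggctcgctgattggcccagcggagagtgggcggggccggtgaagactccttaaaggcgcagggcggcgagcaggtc
Hspa1b: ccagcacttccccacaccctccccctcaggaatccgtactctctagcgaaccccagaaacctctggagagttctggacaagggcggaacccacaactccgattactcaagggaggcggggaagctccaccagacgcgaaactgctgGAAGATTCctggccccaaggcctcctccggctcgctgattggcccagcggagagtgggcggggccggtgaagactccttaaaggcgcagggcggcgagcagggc

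The 300-base windows of the table, which run on for 50 bases past the start site, were identical at 296 of 300 bases (98.67%). The 4 differences were C44T, T47C, T249G and C276T, counted from 1 at the 5′ end of the window with the base of Hspa1a first. The element began 104 bases before the start site in both. Searched on both strands of 32851 promoter windows of the same length, GAANNTTC was found in 7.86%, TTCNNGAA in 8.52% and either of them in 15.1%. A match describes letters only and shows no binding.

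The reads do not separate these copies cleanly. Of the 50-base windows of the Hspa1a transcript, 60.3% occurred in another annotated transcript, 58.8% in Hspa1b, and for Hspa1b the share was 62.3%. Hspa1a took 49.1% to 57.8% of the summed counts of both in every library, so the sum is the safer measure.

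That sum had 47.2, 56.3 and 119.8 CPM in IgG replicates 1 to 3, 56.3, 70.4 and 60.3 CPM in IgG+Mino, 66.4, 51.8 and 30.8 CPM in APB5, and 71.1, 57.4 and 58.6 CPM in APB5+Mino. IgG replicate 3 was the highest library and APB5 replicate 3 the lowest, a 3.89-fold span, and the 4 groups overlapped. The group means were 74.4 ± 39.5, 62.3 ± 7.25, 49.6 ± 17.9 and 62.4 ± 7.59 CPM (mean ± SD, n = 3) in the same order. Its log2 difference was −0.57 (SE 0.40, adjusted P = 0.717) in APB5 against IgG and 0.32 (SE 0.26, adjusted P = 0.394) in APB5+Mino against APB5, by edgeR quasi-likelihood test, Benjamini-Hochberg adjusted. Without IgG replicate 3 the first of these was −0.07, and without both that library and APB5 replicate 3 it was 0.18. The second was 0.074 without APB5 replicate 3 and 0.58 without APB5 replicate 1. In IgG+Mino against IgG the sum differed by −0.26 (adjusted P = 0.801) and without IgG replicate 3 by 0.26.

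For each copy the pattern was like that of the sum. Hspa1a had 25.3, 29.1 and 64.3 CPM in IgG, 30.9, 34.6 and 29.6 CPM in IgG+Mino, 33.5, 26.2 and 17.2 CPM in APB5, and 38.5, 33.2 and 32.4 CPM in APB5+Mino. Hspa1b had 21.9, 27.2 and 55.5 CPM in IgG, 25.4, 35.8 and 30.7 CPM in IgG+Mino, 32.8, 25.6 and 13.6 CPM in APB5, and 32.6, 24.2 and 26.3 CPM in APB5+Mino. Neither copy had groups apart in any comparison, and their lowest adjusted P was 0.217, for Hspa1a in APB5+Mino against APB5.

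Hspa8 encodes Hsc70, the constitutive HSP70 that also uncoats clathrin vesicles (chr9:40711630-40731039, plus strand). It stood at 813, 882 and 1395 CPM in IgG, 919, 873 and 929 CPM in IgG+Mino, 988, 881 and 1194 CPM in APB5, and 730.4, 673 and 719 CPM in APB5+Mino. The APB5+Mino libraries were the 3 lowest of the 12, and replicate 3 of IgG and of APB5 were the 2 highest. Hspa8 fell in APB5+Mino against IgG+Mino by 0.36 on the log2 scale (SE 0.077, adjusted P = 0.0304, edgeR quasi-likelihood test, Benjamini-Hochberg adjusted), a call lost with all 12 libraries in 1 fit (adjusted P = 0.365) and with Xist as a covariate (0.264). Against APB5 it differed by −0.54 (SE 0.17, adjusted P = 0.0754), and APB5 against IgG differed by 0.0021 (SE 0.25). Many Hspa8 reads could fall elsewhere too, since 70.0% of its 50-base windows occurred in the pseudogene Gm15459, which had 13.2% to 15% as many counts in every library.

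Hsph1 encodes HSP110, which releases ADP from HSP70 and helps it dissolve aggregates (chr5:149537636-149560156, minus strand). It had 50.6, 52.0 and 76.4 CPM in IgG, 59.0, 61.5 and 61.9 CPM in IgG+Mino, 71.6, 64.7 and 97.0 CPM in APB5, and 50, 52.8 and 57.9 CPM in APB5+Mino. All APB5+Mino libraries lay below all APB5 libraries, a log2 difference of −0.56 that did not pass (SE 0.17, adjusted P = 0.0751) and was −0.35 without APB5 replicate 3, where it passed. The APB5 and IgG libraries overlapped, with a log2 difference of 0.40 (SE 0.22, adjusted P = 0.686) that was 0.19 without APB5 replicate 3. None of its 50-base windows was shared with another transcript.

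Dnajb1 encodes HSP40, the J-domain partner that loads clients onto HSP70 (chr8:84334811-84339820, plus strand). Its levels were 54.4, 53.2 and 68.5 CPM in IgG, 58.3, 61.7 and 62.8 CPM in IgG+Mino, 65.7, 58.2 and 54.7 CPM in APB5, and 52.0, 48.8 and 48.7 CPM in APB5+Mino. The span over the 12 libraries was only 1.41-fold, yet the APB5+Mino libraries were the 3 lowest. Dnajb1 differed from IgG+Mino by −0.29 (SE 0.079, adjusted P = 0.0552) and from APB5 by −0.27 (SE 0.099, adjusted P = 0.105) on the log2 scale, just outside and outside the threshold. The first of these passed with a block by replicate number (adjusted P = 0.0332, edgeR quasi-likelihood test), with DESeq2 (0.0145), with voom (0.0102) and with at least 10 counts in every library (0.0459). These settings called 4045, 3532 and 4942 of 20049 genes and 1969 of 18228, against 1621 of 20049 with the settings reported. With all 12 libraries in 1 fit or with Xist as a covariate 0 genes were called, Dnajb1 included.

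The HSP90 genes encode the inducible Hsp90α (Hsp90aa1, chr12:110656842-110669166, minus strand) and the constitutive Hsp90β (Hsp90ab1, chr17:45878552-45891949, minus strand), which mature kinases and steroid receptors. Hsp90aa1 had 1534, 1523 and 1436 CPM in IgG, 1422, 1334 and 1426 CPM in IgG+Mino, 1407, 1364 and 959 CPM in APB5, and 1158, 1058 and 1096 CPM in APB5+Mino. It was lowest in APB5 replicate 3, and APB5+Mino was otherwise the lowest group. Hsp90ab1 had 698, 706 and 718 CPM in IgG, 664, 568 and 649 CPM in IgG+Mino, 670.3, 653 and 976 CPM in APB5, and 505, 465 and 499 CPM in APB5+Mino. In APB5 replicate 3 the 2 genes thus stood at opposite ends, Hsp90aa1 at its lowest and Hsp90ab1 at its highest level of the 12 libraries.

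Both HSP90 genes fell in APB5+Mino against IgG+Mino. The log2 fold change was −0.33 (SE 0.077, adjusted P = 0.0371) for Hsp90aa1 and −0.36 (SE 0.090, adjusted P = 0.0455) for Hsp90ab1, by edgeR quasi-likelihood test, Benjamini-Hochberg adjusted. With all 12 libraries in 1 fit the adjusted P was 0.268 and 0.275, and with Xist as a covariate 0.350 and 0.136 (edgeR), so that neither passed. Scaling by library size alone ended the call of Hsp90ab1 (adjusted P = 0.0604) as well. Against APB5, Hsp90ab1 had −0.66 (SE 0.20, adjusted P = 0.0703) and Hsp90aa1 −0.18 (SE 0.19, adjusted P = 0.502). Without APB5 replicate 3 both passed there, together with Dnajb1, Hspa5, Hspa8 and Hsph1, at log2 fold changes of −0.44 for Hsp90ab1 and −0.33 for Hsp90aa1. That fit called 6 of 10 members at any fold and 0 with the fold threshold, and at any fold it called 5484 of 20621 genes, against 977 of 20281 with all 6 libraries.

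Hspb1 encodes HSP27, a small heat shock protein that holds unfolded clients and guards actin filaments (chr5:135916760-135918417, plus strand). A stretch of 137 bases that ends just before the annotated start is shown because it held 2 copies of GAANNTTC, in capitals, 117 and 97 bases before the start site of the table (chr5:135916623-135916759, GRCm39, plus strand).
Hspb1: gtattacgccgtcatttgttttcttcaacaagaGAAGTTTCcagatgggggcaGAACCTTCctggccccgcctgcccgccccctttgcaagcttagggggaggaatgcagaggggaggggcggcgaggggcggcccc

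Hspb1 stood at 4.62, 5.27 and 4.59 CPM in IgG, 4.18, 2.27 and 4.84 CPM in IgG+Mino, 6.76, 3.36 and 47.1 CPM in APB5, and 2.76, 1.62 and 3.87 CPM in APB5+Mino. A single library, APB5 replicate 3, was far above the other 11, and the span of 29.0-fold was the widest of the members. The log2 fold change in APB5 against IgG was 2.01 (SE 0.89, adjusted P = 0.664, edgeR quasi-likelihood test, Benjamini-Hochberg adjusted), and it was 0.07 without that library. With Xist as a covariate it was 2.75 and passed (adjusted P = 0.0101, edgeR), in a fit that called 1480 of 21228 genes. All IgG libraries were high in Xist, and APB5 replicate 3 was the only such APB5 library. That fit was not repeated without it, so the call may rest on this library. In APB5+Mino against APB5 Hspb1 had −2.82 (SE 0.99, adjusted P = 0.0960), and −0.88 without APB5 replicate 3. The same library had the highest summed levels of Müller glia, microglia, pericyte and pigment epithelium markers and the lowest of rod markers, and their part in the Hspb1 level was not tested. Of its 50-base windows, 58.0% occurred in the pseudogene Hsp25-ps1, which had 50 to 1753 counts per library, so its counts are uncertain.

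Hspa5 encodes BiP, the HSP70 of the ER lumen and the usual readout of the unfolded protein response (chr2:34661982-34668880, plus strand). Its window held the ER stress response element, a CCAAT and a CCACG with 9 bases between them, which 0.119% of the 32851 promoter windows held, and it held neither GAANNTTC nor TTCNNGAA. The 30 bases around it (chr2:34662032-34662061, GRCm39, plus strand, inside the annotated gene, whose earliest start lies upstream of the RefSeq start) are shown because Hspa5 is the member that changed most clearly, with both parts in capitals. The element began 65 bases before the RefSeq start.
Hspa5: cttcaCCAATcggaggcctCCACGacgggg

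Hspa5 had 271, 275 and 400.0 CPM in IgG, 289, 275 and 283 CPM in IgG+Mino, 399, 331 and 538 CPM in APB5, and 188, 191 and 207 CPM in APB5+Mino. The 3 APB5+Mino libraries were the lowest of the 12, and the closest APB5 library stood at 331 CPM. The group means were 315 ± 73.4, 282 ± 7.13, 423 ± 106 and 195 ± 10.1 CPM (mean ± SD, n = 3) in the same order. APB5 against IgG overlapped, since IgG replicate 3 stood as high as APB5 replicate 1, with a log2 difference of 0.44 (SE 0.24, adjusted P = 0.684) that was 0.21 without APB5 replicate 3 and 0.63 without IgG replicate 3. Against IgG+Mino, APB5+Mino had lower Hspa5, which fell by 0.53 on the log2 scale (SE 0.079, adjusted P = 0.0125, edgeR quasi-likelihood test, Benjamini-Hochberg adjusted), the call that was lost in the fits of all 12 libraries given above. The interaction was −0.96 (SE 0.27, adjusted P = 0.159), so the difference with minocycline was more negative after APB5 than after IgG but did not pass. It passed with DESeq2 (adjusted P = 0.0257), voom (0.00367) and Xist as a covariate (0.0315, edgeR). It also passed with IgG replicate 3 and APB5 replicate 3 both left out (0.00870, edgeR). All these settings also called more genes of the whole table. The IgG side of the interaction cannot be told apart from sex. None of the 50-base windows of Hspa5 occurred in another transcript, while Rabepk overlaps it on the opposite strand with 872 to 1239 counts per library.

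The fall of Hspa5 in APB5+Mino against APB5 was close to the threshold. In a fit blocked by replicate number it was −1.10 (adjusted P = 0.0641, edgeR quasi-likelihood test), and no gene of the whole table passed in that fit. The call was also lost without APB5 replicate 1 (−1.18, adjusted P = 0.105) and without APB5+Mino replicate 1 (−1.10, 0.117), 2 (−1.11, 0.214) or 3 (−1.17, 0.205). It held without APB5 replicate 3 at −0.91, under the fold threshold. Leaving out replicate 3 of both groups, the only Xist-high libraries among the 6, Hspa5 differed by −0.95 (adjusted P = 0.0108).

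Hspd1 encodes the mitochondrial chaperonin HSP60 (chr1:55116989-55171038, minus strand) and lies head to head with Hspe1, which encodes its co-chaperonin HSP10. An 18-base run of alternating GAA and TTC units at chr1:55127218-55127235 lay 25 bases from the annotated start of Hspe1. It lay 127 bases from the second RefSeq start of Hspd1, and the window of the first start of Hspd1 held no heat shock element. Runs of 3 GAA and TTC units occurred in 0.603% of the promoter windows in either orientation, and Hsph1 held one too, 16 bases after its second RefSeq start. Stretches of 30 bases around both are shown for comparison (chr1:55127212-55127241 and chr5:149559744-149559773, GRCm39, minus strand), with the units and the bases between them in capitals.
Hspd1: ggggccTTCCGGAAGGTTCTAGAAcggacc
Hsph1: gctgcagaTTCTGGAAAGTTCtcctcagta

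Hspd1 was the steadiest member, with a 1.34-fold span. It had 115, 122 and 118 CPM in IgG, 112, 93.9 and 100.4 CPM in IgG+Mino, 112, 109 and 107 CPM in APB5, and 99.8, 91.2 and 93.1 CPM in APB5+Mino. IgG lay above APB5 and APB5 above APB5+Mino without overlap, but by small steps, with log2 fold changes of −0.11 (SE 0.11, adjusted P = 0.795) and −0.22 (SE 0.085, adjusted P = 0.117) by edgeR quasi-likelihood test, Benjamini-Hochberg adjusted. Of its 50-base windows, 45.5% occurred in other transcripts, mostly pseudogenes. Its partner Hspe1 fell in APB5+Mino against APB5 by 0.74 on the log2 scale (SE 0.14, adjusted P = 0.0464, same test), from 31.3, 27.9 and 35.3 CPM to 21.7, 17.8 and 17.8 CPM.

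**Figure D2:**
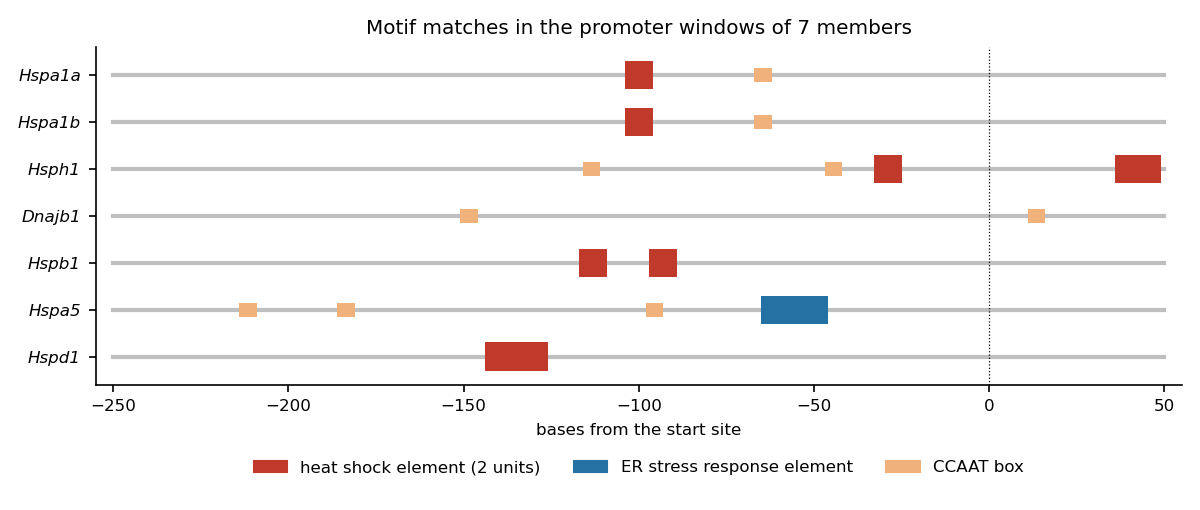
Position of motif matches (x axis, bases from the RefSeq start site, with 250 bases before and 50 after it) in 7 members for which the promoter table has an entry; red blocks are heat shock elements of at least 2 units, the blue block is the ER stress response element and light blocks are CCAAT boxes. Hspa1a, Hspa1b, Hsph1, Hspb1 and Hspd1 hold heat shock elements, Hspa5 alone holds the ER element, and Dnajb1 holds CCAAT boxes only. Hspd1 is drawn for its second start site, and the window of its first holds no heat shock element.

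Promoter windows were found for 7 of 10 members, and those of Hspa8, Hsp90aa1 and Hsp90ab1 were not analysed here.

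**Figure D3:**
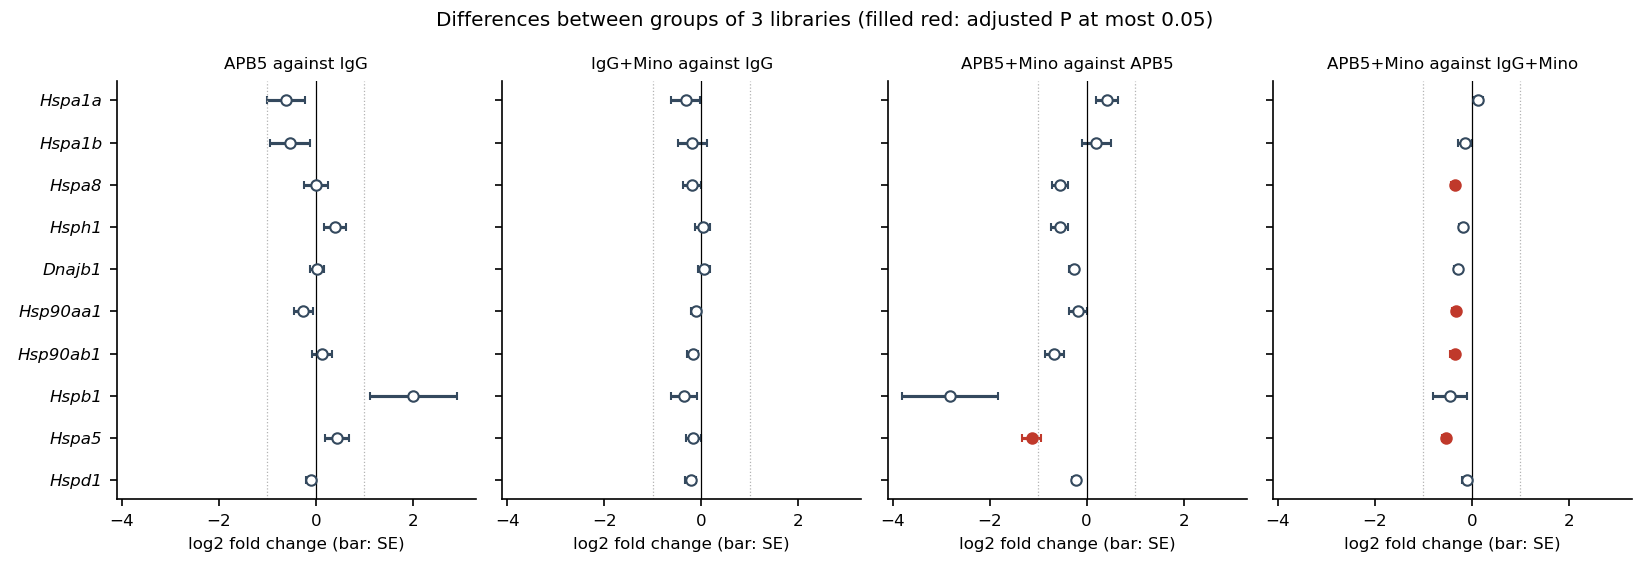
log2 fold change (x axis, bar: SE) of the 10 members in 4 comparisons of 3 against 3 libraries; filled red points have an adjusted P of at most 0.05 and dotted lines mark a log2 fold change of 1 in either direction. Hspa5 is the only filled point in APB5+Mino against APB5, at −1.13, and Hspa5, Hspa8, Hsp90aa1 and Hsp90ab1 are filled in APB5+Mino against IgG+Mino, between −0.53 and −0.33.

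The partners of these chaperones were examined in lists drawn from general knowledge. In APB5+Mino against APB5 no gene of the whole table passed with the replicate block, so the calls of all genes named for that comparison, Hspe1 and those below included, were lost in that fit. Among 18 genes of ER chaperones and the unfolded protein response, without Hspa5, 16 were lower in APB5+Mino against APB5, with a median log2 fold change of −0.57 beside −0.021 for all genes, and 3 fell at an adjusted P of at most 0.05 (2.03% of all genes): Sil1, the nucleotide exchange factor of BiP (−0.79, SE 0.15), Dnajb11, its J-domain partner (−0.59, SE 0.12), and Hsp90b1, the HSP90 of the ER (−0.65, SE 0.14). Against IgG+Mino, 15 were lower with a median of −0.33, and 5 fell (3.28% of all genes), among them Sil1 (−0.61), Pdia3 (−0.40) and Hsp90b1 (−0.52). In that comparison 0 of 21228 genes passed with all 12 libraries in 1 fit or with Xist as a covariate. Hsp90b1 had 541, 507 and 535 CPM in APB5 and 298, 331 and 387 CPM in APB5+Mino, so the groups did not overlap. In APB5 against IgG, 16 of the 18 were higher with a median of 0.13, and 0 were called, with Dnajc3 at 0.37 (SE 0.13) and Xbp1 at 0.62 (SE 0.23).

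Cofactors of the cytosolic chaperones were examined next. Among all genes in APB5+Mino against APB5, 2.03% were called lower and 2.79% higher, and the median log2 fold change was −0.021. Of 8 nucleotide exchange and ubiquitin cofactors of HSP70, 7 were lower in APB5+Mino against APB5 (median −0.41), and Bag1, which links HSP70 to the proteasome, fell by 0.67 (SE 0.12, adjusted P = 0.0461, edgeR quasi-likelihood test, Benjamini-Hochberg adjusted). Bag3, the autophagy cofactor of HSP70 and an HSF1 target, had 13.6, 14.2 and 12 CPM in IgG, 44.2, 22.6 and 106.4 CPM in APB5, and 18.5, 15.3 and 11.8 CPM in APB5+Mino. All 3 APB5 libraries lay above every IgG library, a pattern that 7.79% of all genes had. The log2 difference was 2.14 (SE 0.52, adjusted P = 0.664, unadjusted P = 0.00395, same test) and did not pass. In APB5+Mino against APB5 it was −1.95 (adjusted P = 0.0638), which did not pass either. Bag3 averaged 19.3 ± 3.25 CPM in IgG+Mino (mean ± SD, n = 3), a log2 difference from IgG of 0.54 (adjusted P = 0.585, same test) that did not pass.

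Of 10 co-chaperones of HSP90, 7 were lower in APB5+Mino against APB5. Cdc37, which brings kinases to HSP90, fell by 0.63, and Fkbp5, a glucocorticoid-responsive immunophilin, rose by 0.74 (SE 0.12, adjusted P = 0.0447, edgeR quasi-likelihood test). These calls and those of the lists that follow stand beside 2.03% of all genes called lower and 2.79% called higher. Among 8 mitochondrial chaperones and proteases 4 were lower, with Hspe1 called and the protease gene Lonp1 called in the other direction, at 0.41. All 8 subunits of the TRiC chaperonin, which folds actin and tubulin, were lower with 0 called, led by Cct3 (−0.38) and Cct7 (−0.39). Of the genes listed as other small heat shock proteins, 6 of 8 were lower, with Hspb11 called at −0.77. Hspb11 was listed by its symbol, so this call need not concern a chaperone. The other HSP70 and HSP110 genes had 6 of 9 lower with Hspa12a called higher at 0.50. The cytosolic J-domain genes had 7 of 9 lower with 0 called (Dnajb4 −0.40 and Dnaja4 0.57). In IgG+Mino against IgG none of these chaperone lists had a call, where 0.0298% of all genes were called.

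The list of other small heat shock proteins also held crystallins. Its most abundant gene was the crystallin Cryaa. The 10 lens markers summed to 965 CPM in IgG+Mino replicate 3 and 453 CPM in IgG replicate 1, against 3.91 to 76.6 CPM in the other 10 libraries. The part of lens RNA in that list was not tested, and the 10 members did not include a crystallin.

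None of 6 heat shock factors and regulators passed in any comparison. Of all genes, 2.03% were called lower and 2.79% higher in APB5+Mino against APB5, and 3.28% and 4.80% in APB5+Mino against IgG+Mino. At most 0.0298% of genes passed in the other comparisons. Hsf1 had 33.0, 32.4 and 52.3 CPM in IgG, 49.5, 47.5 and 41.6 CPM in IgG+Mino, 42.2, 36.9 and 31.5 CPM in APB5, and 50.1, 52.5 and 52.9 CPM in APB5+Mino. Its 3 APB5+Mino libraries lay above the 3 APB5 libraries, by 0.48 on the log2 scale (SE 0.12, adjusted P = 0.0557, edgeR quasi-likelihood test, Benjamini-Hochberg adjusted), and Hsbp1, a negative regulator of HSF1, had −0.46 (adjusted P = 0.0885). Hsf2 averaged 38.2, 33.5, 32.2 and 32.9 CPM in IgG, IgG+Mino, APB5 and APB5+Mino. Hsf4 averaged 5.82 to 7.57 CPM over the groups, and Hsf5 and Hsf2bp were lower still.

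**Figure D4:**
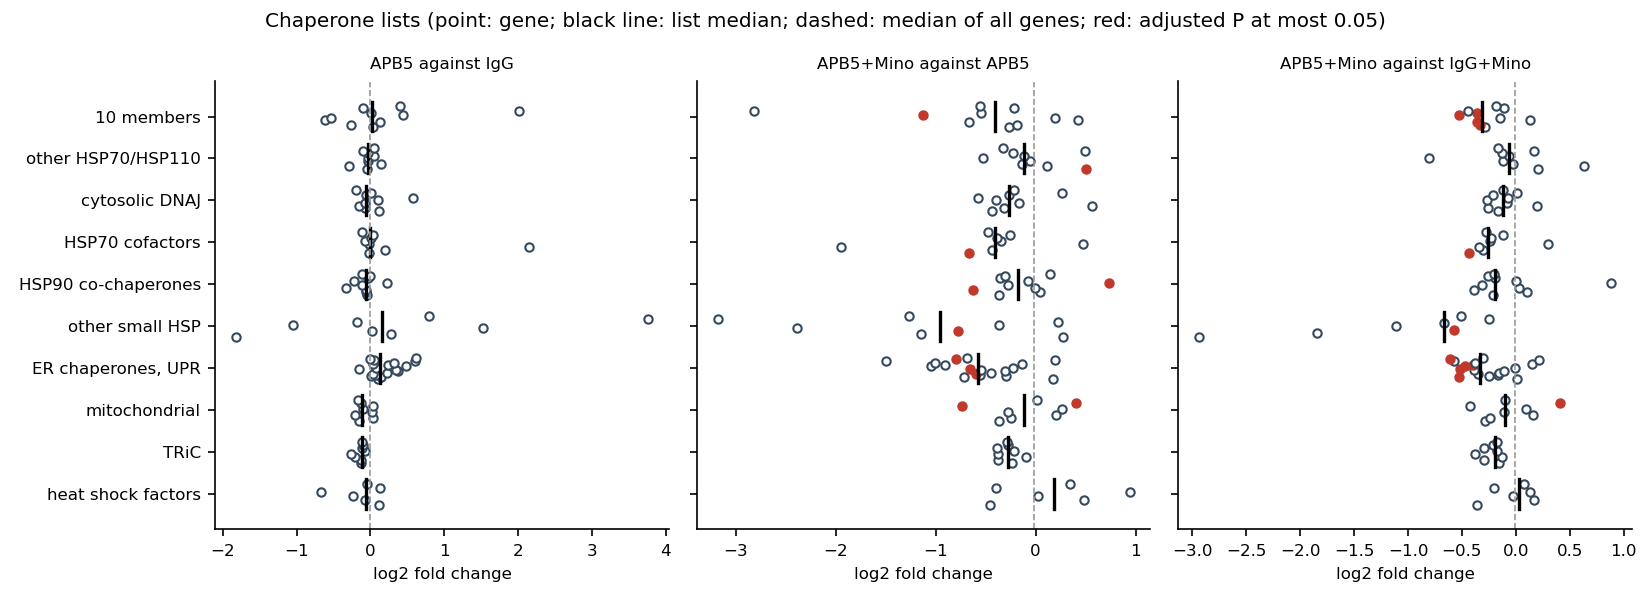
log2 fold change (x axis) of each gene (points) of the 10 members and 9 chaperone lists in 3 comparisons; black lines are list medians, the dashed line is the median of all genes tested, and red points have an adjusted P of at most 0.05. In APB5+Mino against APB5 the ER list lies mostly to the left, with a median of −0.57, while the mitochondrial list has called points on both sides.

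Some other gene groups moved in the same libraries as Hspa5, but not as every member. Hspa1a, Hspa1b and Hsp90aa1 had their lowest level in APB5 replicate 3. The 18 immediate early genes, led by Egr1, summed to 896, 905 and 2434 CPM in IgG, 885, 1830 and 1185 CPM in IgG+Mino, 1685, 1019 and 3949 CPM in APB5, and 564, 553 and 533 CPM in APB5+Mino. They were highest in replicate 3 of APB5 and of IgG and lowest in APB5+Mino, the same libraries as for Hspa5. All 18 were lower in APB5+Mino against APB5, with a median log2 fold change of −2.07 beside −0.021 for all genes. Of the 18, 6 were called lower, where 2.03% of all genes were. Müller glia markers (10 genes, led by Glul) summed to 4347 to 5715 CPM in IgG, 4617 to 4866 CPM in IgG+Mino, 5252 to 11328 CPM in APB5, and 3715 to 3914 CPM in APB5+Mino. In APB5 against IgG, 7 of these 10 were higher and 3 lower with 0 called, with Gfap, the filament protein of reactive glia, at 429 ± 503 against 50.6 ± 3.75 CPM (mean ± SD, n = 3) and Glul, the glutamine synthetase gene, at 2132 ± 498 against 2390 ± 372 CPM. Microglia and macrophage markers (13 genes) summed to 73.1 to 113 CPM, 56.1 to 64.0 CPM, 95.2 to 705 CPM and 34.9 to 40.3 CPM in the same order.

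Rod markers did not follow this order. They summed to 59068 to 84267 CPM in IgG, 70302 to 74957 CPM in IgG+Mino, 67119, 57326 and 14883 CPM in APB5, and 54423 to 58838 CPM in APB5+Mino, and 6 of 12 fell in APB5+Mino against IgG+Mino. In that comparison 6 of 13 microglia and macrophage markers, 4 of 10 Müller glia markers and 11 of 18 immediate early genes fell too, where 3.28% of all genes did, and 1 immediate early gene, Fosl1, rose by 1.46 on the log2 scale. Pericyte and smooth muscle markers (9 genes, led by Rgs5) summed to 451 CPM in APB5 replicate 3 and to 66.6 to 128 CPM in the others, and 10 pigment epithelium and melanocyte markers to 993 CPM there and to 62.8 to 227 CPM elsewhere. Endothelial markers (8 genes, led by Kdr) summed to 224 to 284 CPM in IgG, 207 to 278 CPM in IgG+Mino, 285 to 341 CPM in APB5 and 197 to 223 CPM in APB5+Mino. In APB5+Mino against APB5 all 8 were lower, with a median of −0.76 beside −0.021 for all genes. Of these 8, 3 were called lower, where 2.03% of all genes were. The 13 mitochondrially encoded genes, led by COX1, summed to 32414 to 51227 CPM in IgG, 52909 to 62345 CPM in IgG+Mino, 39077 to 57923 CPM in APB5, and 59366 to 65989 CPM in APB5+Mino. All 13 were higher in APB5+Mino against APB5 (median 0.31, 1 called, where 2.79% of all genes were called higher). In IgG+Mino against IgG 12 of 13 were higher (median 0.68, 0 called, where 0.0298% of all genes were called). None of these lists had a gene at 0 throughout. The part of these gene groups in the levels of the members was not tested. Within the libraries without APB5 replicate 3, the fall of Hspa5 in APB5+Mino against APB5 was as given above, from 399 and 331 CPM to at most 207 CPM.

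**Figure D5:**
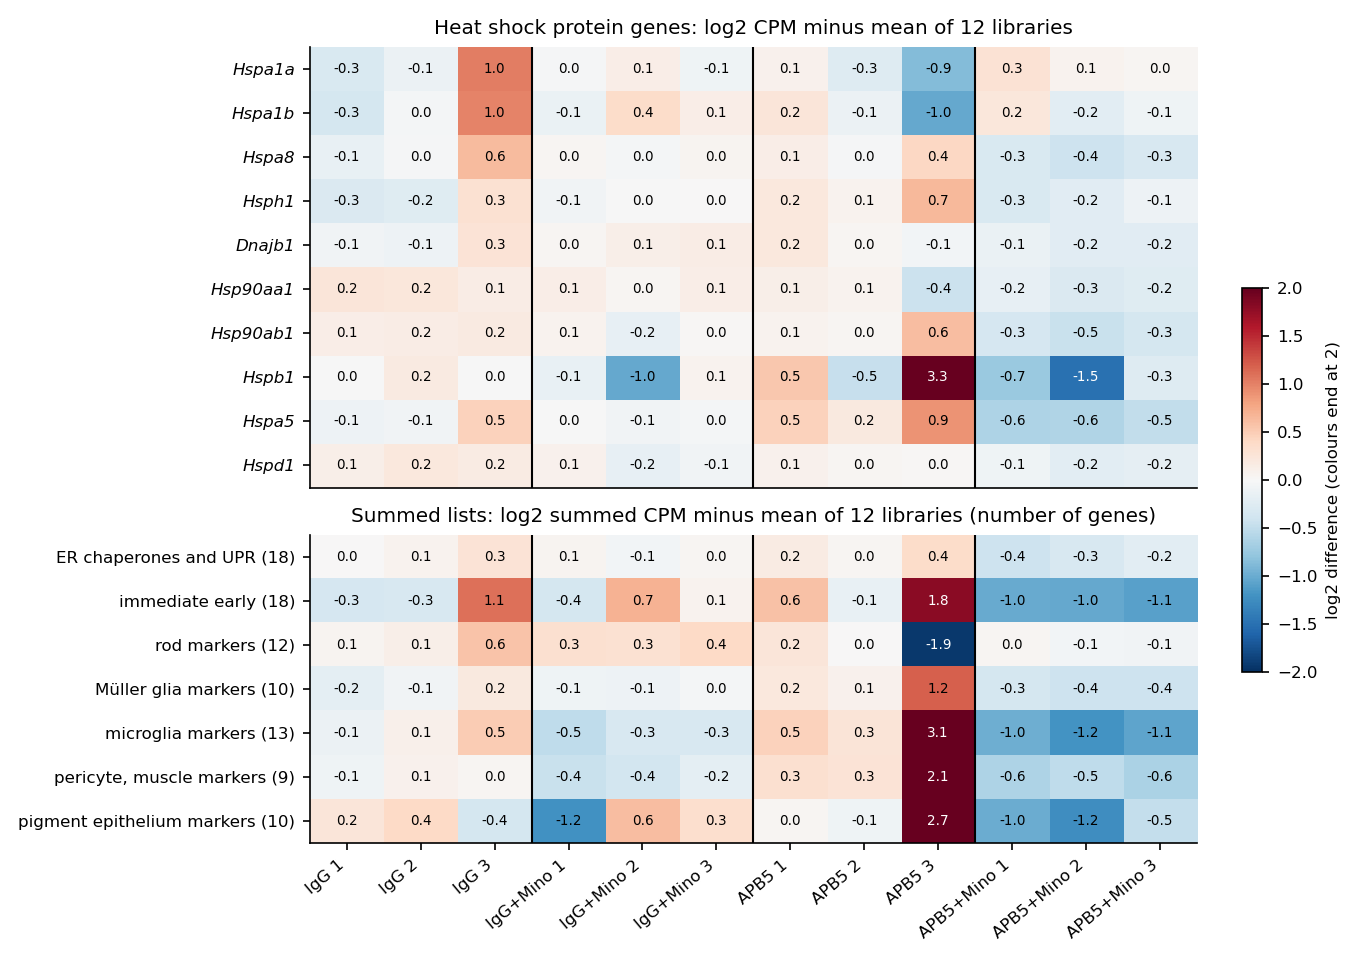
Heat map of log2 CPM minus the mean of the 12 libraries for the 10 members (upper panel) and for the summed CPM of 7 gene lists (lower panel), by library; red is higher and blue lower, and colors end at 2. In APB5 replicate 3, Hspb1, Hspa5 and Hsph1 are high with the glial, pericyte and pigment epithelium markers while Hspa1a, Hspa1b and Hsp90aa1 are low with the rod markers, and in the 3 APB5+Mino libraries Hspa5, Hspa8 and Hsp90ab1 are low with the ER list.

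The members did not vary as 1 block. Across the 12 libraries, Hspa5 had a Pearson r of log2 CPM of 0.89 with Hsph1, 0.89 with Hspa8 and 0.90 with Hsp90ab1, but −0.20 with the sum of Hspa1a and Hspa1b. After subtraction of the group means, the Hspa1 sum followed Dnajb1 (r = 0.94) and Hspa5 followed Hsph1 (r = 0.98). Hsp90aa1 and Hsp90ab1 had an r of 0.16 across the 12 libraries and of −0.79 after that subtraction, with APB5 replicate 3 at −0.44 and 0.62 on the log2 scale from their means over the 12 libraries. These values describe 12 libraries that share groups and total count scaling.

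Among 15801 other genes with at least 1 CPM on average, those most like Hspa5 over the 12 libraries were Sdf2l1, an ER stress gene (Pearson r = 0.98, Spearman coefficient 0.93, and r = 0.96 without the 2 libraries farthest from the median), Iah1, Dnajc15, Prdx6 and Pdia6, a protein disulfide isomerase (r from 0.97 to 0.98). The genes most like Hspa8 were its pseudogene Gm15459, which shares its sequence (r = 0.98), and Cited4, Id2, Tspan31 and Taldo1 (r = 0.97). The genes most like the Hspa1 sum were Mab21l1 (r = 0.97, Spearman coefficient 0.92), Tbccd1, Poli, Kansl2-ps and Hacl1, at r from 0.94 to 0.97. Without IgG replicate 3 and APB5 replicate 3 these 5 had r from 0.66 to 0.88, so the likeness was weaker without those libraries. Without the 2 farthest libraries r ranged from 0.94 to 0.98 for the 5 genes most like Hspa5 and from 0.897 to 0.95 for those most like Hspa8.

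Some read assignments limit single members further. The pseudogene Gm12346 held 47.8% of the 50-base windows of Hsp90aa1 and had 13.1% to 15.2% as many counts. Slc35b2 overlaps Hsp90ab1 on the opposite strand with 985 to 1485 counts per library, Hspe1 and Mob4 overlap Hspd1 with 911 to 2366 and 1931 to 3205 counts, and whether counting used the strand was not given in the sources used here. Hsph1 and Hspa5, which had no shared window, are the members least affected by look-alike copies.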

How the data were processed

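Poly-A RNA of 12 retinal libraries was sequenced by the authors, strand-specifically, as single reads of 50 cycles. Per the labels and the study's methods, bcl2fastq 2.20 and the DRAGEN RNA pipeline (mm39 with the NCBI annotation) were used. The pipeline version is not given in the sources used here. The authors deposited reads per gene as raw counts, and these counts are the only deposited values used. A second copy of the counts, 3 repeated columns and the authors' result tables, which hold fold changes, p-values and group means, were not used.

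CPM were computed with R 4.3.3 and edgeR 4.0.16 from TMM factors of the 12 libraries, and log2 CPM with a prior count of 2. For each pair of groups, only its 6 libraries were fitted, after edgeR's filterByExpr, with the quasi-likelihood test, and P was adjusted by Benjamini-Hochberg over all genes that passed, which included all 10 members. Calls required an adjusted P of at most 0.05, with or without a log2 fold change of at least 1. The interaction was fitted on 12 libraries. Tests were two-sided, and an exact permutation test of 3 against 3 libraries cannot go below 0.1. The fits were also tried on simulated data, and no statement here rests on the outcome. Other tools were limma 3.58.1 and DESeq2 1.42.0.

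The 10 members, the gene lists and the tests were chosen with earlier results of these data known. Genes named from a list were the called ones with the smallest P, up to 3 per direction, or else up to 2 with the smallest P. Values per library of Hspe1, Bag3 and Hsp90b1 were added after they were seen. Windows of 50 bases of each canonical transcript (GENCODE, GRCm39) were searched in all other transcripts, and look-alike genes that held at least 10% of the windows were listed. Promoters came from the RefSeq table of GRCm38.p6 and were placed on GRCm39 by exact match.

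Groups share replicate numbers, and no source says what a number marks. In APB5+Mino against APB5, deviations from the group means correlated by 0.119 to 0.169 between libraries of the same number. Between the others the correlation was −0.133 to 0.011, so the numbers were taken to pair these libraries. The settings reported ignored this pairing. With it as a block no gene of that comparison passed, so its calls hold only without pairing. In each other comparison at least 1 of the 3 correlations was under 0.1. Alternatives were DESeq2, limma's voom with quality weights, scaling by RLE or by library size alone, robust estimation, other count filters, all 12 libraries in 1 fit, the replicate number as a block, Xist as a covariate, other thresholds, the summed Hspa1 pair, and each library left out. The fits with Xist as a covariate used all 12 libraries.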

Additional observations from a re-analysis of the deposited data

How the results depend on the processing

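Values are log2 fold changes or counts of the 10 members called. In APB5+Mino against APB5, 1 member was called with and without the fold threshold. With the threshold and the settings reported, 171 of 20281 genes were called higher and 166 lower. The numbers were 524 and 1007 with DESeq2, 688 and 745 with voom, and 713 and 1345 with unadjusted P. They were 487 and 1155 of 21228 with all 12 libraries in 1 fit, and 678 and 1275 of 21228 with Xist as a covariate. With the threshold the count of members was 0 with library size only, with voom and with the replicate block. It was also 0 with replicate 3 of both groups left out (added after seeing the data). The count of members was 2 with DESeq2, all 12 libraries in 1 fit, Xist as a covariate and unadjusted P. At any fold it was 0 with library size only (5 of 20281 genes called) and with the block (0 genes), 4 with all 12 libraries (4463 of 21228), 5 with DESeq2 (5128 of 20281) and with Xist (5584 of 21228), and 7 with voom (6999 of 20281), against 977 of 20281 genes with the settings reported. Leaving out 1 library gave 0 to 2 with the threshold and 0 to 6 without. The whole table had 0 calls without any 1 APB5+Mino library. Hspa1b, at 0.20, became −0.10 with voom and −0.045 with both replicates 3 left out, and ranged from −0.081 to 0.49 over single libraries. The direction of Hspa5 did not change in any setting.

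In APB5+Mino against IgG+Mino, 4 members passed with no fold threshold, against 0 with it. The 4 became 0 with all 12 libraries in 1 fit and with Xist as a covariate, and 0 to 5 over single libraries, with 0 without IgG+Mino replicate 3, APB5+Mino replicate 2 or APB5+Mino replicate 3 and only Hspa5 without APB5+Mino replicate 1. With the replicate block it was 5 (4045 of 20049 genes called, against 1621). Their log2 fold changes kept their direction. The Hspa1 sum, at 0.0037, became −0.054 with voom and −0.0091 with at least 10 counts in every library, and ranged from −0.10 to 0.10 over single libraries. Hspa1b became 0.10 with Xist.

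In APB5 against IgG, 1 member was called with Xist as a covariate at either threshold, Hspb1 at 2.75. That fit called 1480 of 21228 genes at any fold, and 1060 higher and 124 lower with the fold threshold. With the settings reported Hspb1 was 2.01, and 0.07 without APB5 replicate 3. The fit with Xist was not repeated without that library, the only APB5 library high in Xist. Hspa8, at 0.0021, became −0.00196 with RLE and with DESeq2, −0.00294 with no count filter and −0.0054 with all 12 libraries, and ranged from −0.14 to 0.27 over single libraries. With voom the Hspa1 sum became 0.089, Hspa1a 0.034, Hspa1b 0.14 and Hsp90ab1 −0.059. With IgG replicate 3 and APB5 replicate 3 both left out (added after seeing the data) they were 0.18, 0.13, 0.24 and −0.092. Dnajb1 became −0.055 with Xist and ranged from −0.042 to 0.14 over single libraries, and Hsp90ab1 from −0.093 to 0.24.

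In IgG+Mino against IgG, Hsph1 and Dnajb1 became −0.049 and −0.024 with library size only. With voom the Hspa1 sum became 0.20, Hspa1a 0.12, Hspa1b 0.28, Hspa8 0.054 and Hspa5 0.0065. With Xist, Dnajb1 became −0.061, Hsp90ab1 0.12, Hspb1 1.64 and Hspa5 0.14. Over single libraries the sum ranged from −0.50 to 0.26, Hspa1a from −0.56 to 0.22, Hspa1b from −0.43 to 0.32, Hspa8 from −0.33 to 0.095, Hspa5 from −0.26 to 0.046, Hsph1 from −0.077 to 0.24 and Dnajb1 from −0.0074 to 0.18. IgG replicate 3 was the library left out at each upper end.

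For the interaction, 1 member passed an unadjusted P with the fold threshold (554 genes higher and 972 lower of 21228). With Xist 2 were called at either threshold (979 of 21228 genes at any fold), and at any fold 1 with DESeq2 (Hspa5, adjusted P = 0.0257, 717 of 21228), 3 with voom (3154 of 21228), and 4 with IgG replicate 3 and APB5 replicate 3 both left out (856 of 21415). Hspd1, at 0.0036, became −0.00574 with RLE, −0.00568 with DESeq2 and −0.016 with library size only, and ranged from −0.051 to 0.096 over single libraries. With voom the Hspa1 sum became −0.14 and Hspa1b −0.37, and with both replicates 3 left out −0.19 and −0.38. Hsp90aa1 became 0.21 with Xist and ranged from −0.24 to 0.032, and Hspa1b from −0.10 to 0.69, over single libraries.

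Over all genes, calls at any fold ranged from 0 to 1480 (Xist as a covariate) against 0 in APB5 against IgG, from 0 to 1214 (voom) against 6 in IgG+Mino against IgG, from 0 to 4942 (voom) against 1621 in APB5+Mino against IgG+Mino, and from 0 to 3154 (voom) against 3 for the interaction. With library size only, the median of all genes in APB5+Mino against APB5 was −0.11. With the replicate block the call of Hspa5 in APB5+Mino against APB5 was lost (adjusted P = 0.0641, edgeR) and Dnajb1 passed in APB5+Mino against IgG+Mino (adjusted P = 0.0332), and no other call of the members changed. The cause of these changes was not tested. The lowest count of any member in a library was 83.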
